A study of Drosophila melanogaster with 4 samples.

Results

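Of the 13493 Drosophila melanogaster genes in the expression tables, 86 lie in the assembled part of pericentric heterochromatin on chromosomes 2L, 3L, 3R and X. They were chosen by position alone, in coordinates of genome Release 5: genes on the scaffolds 2LHet (3 genes), 3LHet (15), 3RHet (8) and XHet (10), and genes starting beyond position 22000000 of 2L (33) or beyond 22900000 of 3L (17). The same stretches hold 8 more genes that were left out by symbol, among them genes of ribosomal proteins, of which 7 could be tested and 1 was lower in the mutant. The borders are round positions. At the 2L border the first gene inside was CG31693, at 1.69 and 2.42 FPKM in wildtype and 0 and 0.063 in the mutant, and the last gene outside was CG2528, at a mean of 6.65 FPKM in wildtype and at 0.664 and 0.689 in the mutant. At the 3L border the first gene inside was CG12768, with 1.65 and 3.22 FPKM in wildtype and 0.229 and 0.317 in the mutant, and the last gene outside was BoYb, with a wildtype mean of 0.272 and mutant values of 0.068 and 0.071.

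Pericentric heterochromatin is the compact, repeat-rich chromatin on both sides of the centromere. Its nucleosomes carry methylation of lysine 9 of histone H3, which HP1a, the product of Su(var)205, binds through its chromodomain, and HP1a in turn recruits further silencing proteins. A euchromatic gene moved next to it is often silenced. The genes that normally reside there are different: classic genetics on light (lt) and its neighbours showed that some of them need a heterochromatic surrounding and HP1a for full expression. The comparison therefore asks what happens to the resident genes when most HP1a is gone.

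RNA from whole larvae of the third instar was sequenced after depletion of rRNA. The wildtype larvae were of the Oregon R strain, and the mutant larvae carried Su(var)205 04 in trans to Su(var)205 05. Both were kept at 25 °C and 70% humidity, and each genotype had 2 libraries, described as biological duplicates. The mutant larvae came from a cross of balancer stocks and were picked by the absence of the GFP that marks the balancer, so they may differ from Oregon R in genetic background as well as in HP1a, and they may have received HP1a from their mothers. Whole larvae mix all tissues, so fewer cells of a type and less RNA per cell cannot be told apart. The transcript of Su(var)205 itself stood at a wildtype mean of 131 FPKM and at 27.8 and 20.1 FPKM in the mutant libraries (log2 fold change -2.42, adjusted p = 0.00271).

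Expression is given in FPKM, sequenced fragments scaled to transcript length and library depth, summed over the transcripts of a gene. Fold changes are mutant over wildtype on the log2(FPKM + 1) scale, which understates the change of weakly expressed genes, and a gene passed the test at a false discovery rate (FDR) of 0.01 in limma. Summed over the named genes, each of the 4 libraries held between 7.07e+06 and 7.46e+06 fragments, as implied by the confidence bounds deposited with the values, and a tested pericentric gene had a median of 302 fragments in wildtype and 147 in the mutant. The 2 genotypes differed across the whole genome: the median log2 fold change of all 9404 tested genes was -0.84, and it was -0.02 once the libraries were rescaled to an equal median. Levels of the pericentric genes are therefore read against that shift.

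Most pericentric genes were expressed at a lower level in the HP1a mutant, and their median fall was larger than that of the other genes of the same arms. Of the 86 genes, 57 passed the filter on low values and on quantification status. Among them 33 were lower in the mutant (57.9%, against 34.6 percent of all tested genes), 4 were higher (against 7.02 percent of all tested genes) and 20 did not pass the test, so that 37 of 57 differed in either direction (against 41.6 percent of all tested genes). In all 33 lower genes both mutant libraries lay below both wildtype libraries. The median log2 fold change of the 57 genes was -1.28, with a range from -4.75 to 3.23, whereas the 7273 tested genes elsewhere on the same arms had a median of -0.84. The estimate was negative for 48 of the 57, and 40 of the 57 (70.2%) lay below the median of all tested genes.

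**Figure D1:**
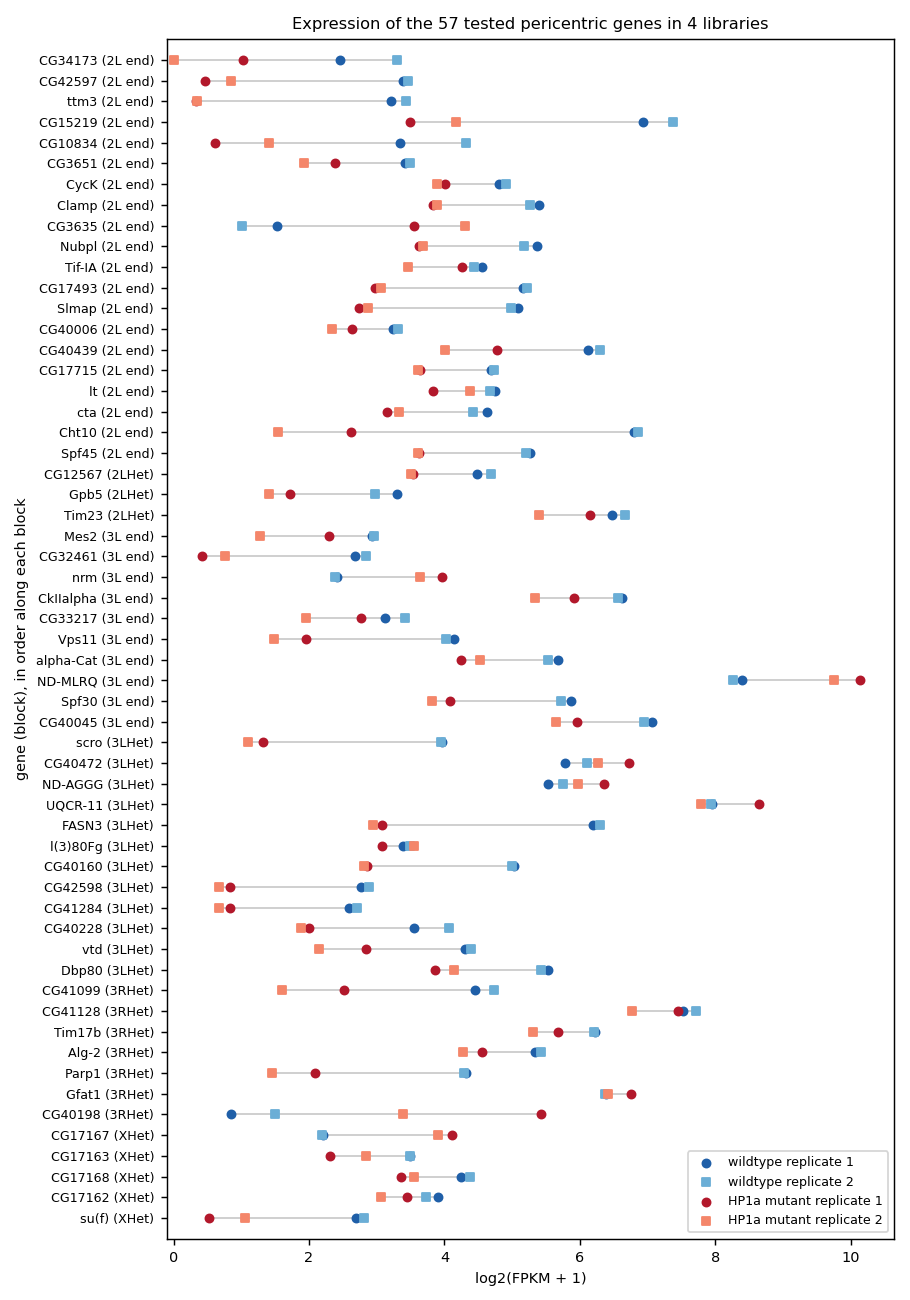
Level of each of the 57 tested pericentric genes on the log2(FPKM + 1) scale (horizontal axis), with 1 point for each wildtype library (blue) and each HP1a mutant library (red). In all 33 genes that passed the test as lower, both red points lie to the left of both blue points. The widest gap is that of Cht10. CG3635, CG17167, nrm, ND-MLRQ, CG40198, CG40472, ND-AGGG and Gfat1 show both red points to the right.

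A shared scale for the libraries removed the genome-wide shift and about as much from the pericentric genes. Once all 4 libraries were brought to an equal median, 13 pericentric genes were lower (22.8%, against 10.2 percent of all tested genes) and 7 were higher (12.3%, against 12.6 percent), the median was -0.44, and the other genes of the same arms had a median of -0.02. All 13 of these lower genes and 4 of the higher ones were the same genes as in the values as deposited. After quantile normalization 13 were lower (against 9.33 percent of all tested genes) and 5 were higher (against 10.9 percent), and the medians were -0.73 and -0.06. The test also rests on the wildtype libraries: with either of them left out no gene of the genome passed the FDR, although 39 and 38 of the 57 pericentric genes had an unadjusted limma p under 0.05 without wildtype replicate 1 and 2, respectively.

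**Figure D2:**
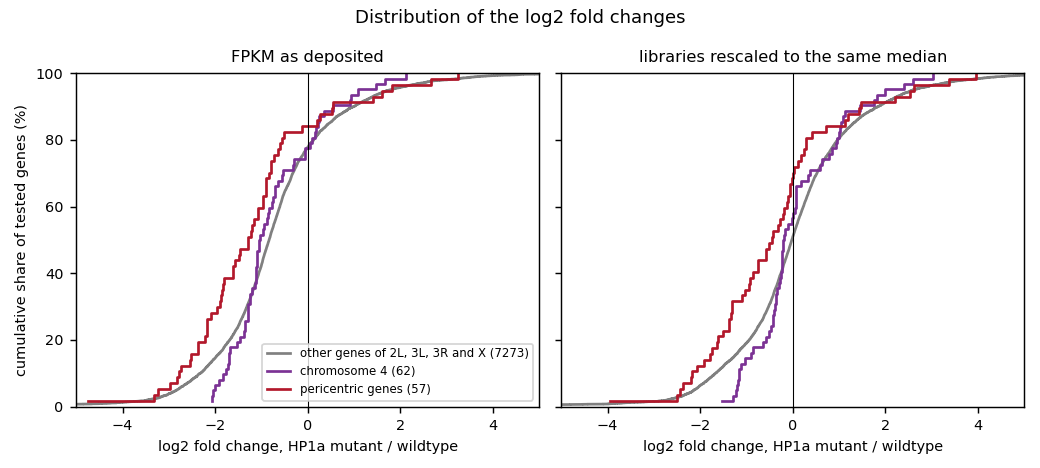
Cumulative share of tested genes (vertical axis, in percent) against log2 fold change (horizontal axis) for the 57 pericentric genes (red), 7273 other genes of the same arms (grey) and 62 genes of chromosome 4 (purple), for the deposited values (left) and after rescaling (right). The red curve lies to the left of the grey one over most of its length in both panels, with medians of -1.28 and -0.84 on the left and -0.44 and -0.02 on the right.

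The genes just outside the borders had a median closer to 0. In the flanking 1 Mb of 2L and 3L, 30 of 96 tested genes were lower and 3 were higher, with a median of -0.67, against 34.6 percent lower and 7.02 percent higher among all tested genes. After rescaling the counts were 6 lower and 11 higher and the median 0.07. On chromosome 4, which is largely heterochromatic, 29 of 62 tested genes were lower (46.8%) and 3 were higher, with a median of -1.03. After rescaling 5 were lower (8.06%, against 10.2 percent of all tested genes) and 7 were higher (11.3%, against 12.6 percent). The median was then -0.20, and both shares were near those of all tested genes. In level the pericentric genes began at or above the rest and ended close to it. Over the 86 genes the median level was 9.97 and 10.3 FPKM for wildtype, against 4.10 and 2.76 for the mutant libraries, and the other genes of the same arms had medians of 7.99 and 8.73 FPKM in wildtype and 3.96 and 3.31 in the mutant. The differences between these groups of genes are descriptions and were not tested.

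The mutant larvae also differed from wildtype in marker genes of several tissues, in whole-larva RNA. The summed level of 6 salivary glue genes was 49634 and 53125 FPKM in wildtype and 75.0 and 484 in the mutant, and all 9 testis genes examined were lower, with sums of 940 and 1259 FPKM in wildtype and 96.7 and 111 in the mutant. Sums of 7 muscle genes went the other way, from 2505 and 2861 FPKM to 13400 and 11674. Sums of 6 neural genes were 33.3 and 34.0 FPKM in wildtype and 13.3 and 13.5 in the mutant, and those of 6 imaginal disc genes were 37.5 and 46.0 and then 8.38 and 7.90. Syt1 made up most of the neural sum (22.0 and 21.1 FPKM in wildtype), and Rdl overlapped between the genotypes. After rescaling 4 of 5 tested glue genes, 6 of 9 testis genes, 1 of 3 tested disc genes and 0 of 2 tested neural genes were lower. That is to be read against 10.2 percent of all tested genes. No marker was at 0 in all 4 libraries, and the part of such differences in tissue make-up or developmental stage in the values of the pericentric genes was not tested.

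The counts were then taken by block of heterochromatin, to be read against 34.6 percent of all tested genes lower as deposited and 10.2 percent after rescaling. At the proximal end of 2L 15 of 20 tested genes were lower (75%) and 1 higher, with a median of -1.62, and 6 were lower after rescaling (30%). On 3LHet 8 of 12 were lower (66.7%), the median was -1.86, and 5 were lower after rescaling (41.7%), so the order of these 2 blocks depends on the scale. At the end of 3L 5 of 10 were lower and 2 higher (median -1.18), against 1 lower and 2 higher after rescaling (median -0.30). On 2LHet 2 of 3 were lower (median -1.07), against 0 after rescaling (median -0.20). On 3RHet 2 of 7 were lower, with a median of -0.72, and on XHet 1 of 5 was lower and 1 higher (median -0.85). The middle gene of these last blocks thus lay near the median of the genome. With rescaled libraries 3RHet had 1 lower and 1 higher (median 0.19), and XHet 0 lower and 1 higher (median 0.01). The difference between blocks was not tested.

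**Figure D3:**
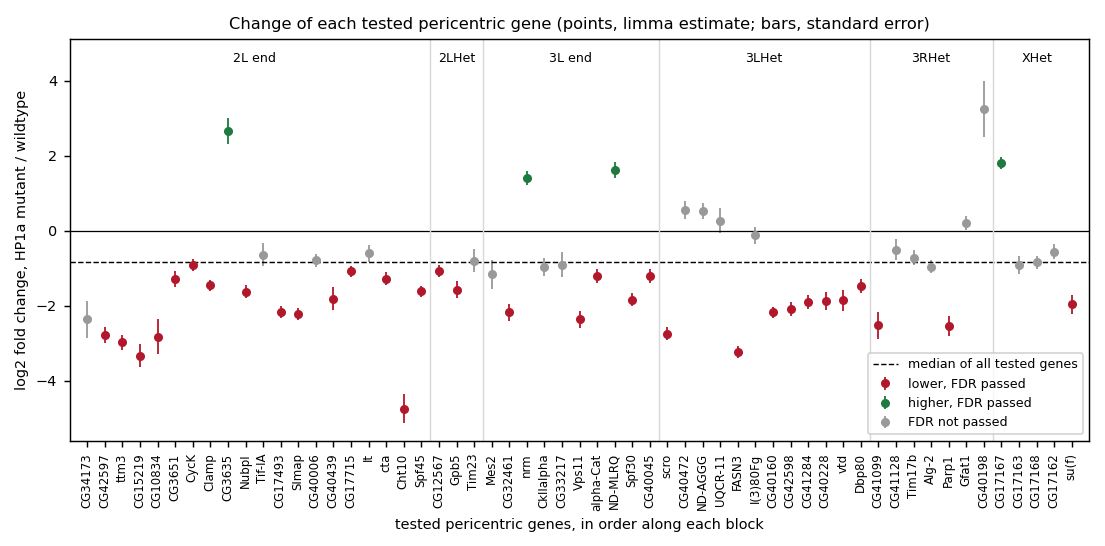
Log2 fold change (vertical axis, limma estimate with its standard error as a bar) of the 57 tested pericentric genes in their order along each block, coloured by the outcome of the test (red lower, green higher, grey not passed), with the median of all tested genes, -0.84, as a dashed line. Red points fill most of 2L and 3LHet, and the grey points of 3RHet and XHet lie around the dashed line, apart from Gfat1 (0.21) and CG40198 (3.23) on 3RHet, which lie above 0.

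Of 9 genes of chromatin and transcription 6 were tested and 5 were lower (83.3%, against 34.6 percent of all tested genes), with a median of -1.66. After rescaling 2 of the 6 were lower (33.3%, against 10.2 percent). In all 9, tested or not, both mutant libraries lay below both wildtype libraries, which held for 66 percent of all genes with expression. Parp1 encodes the poly(ADP-ribose) polymerase that loosens chromatin at active genes and occupies 91611 bp of 3RHet (positions 1935205 to 2026815). It was measured at 18.9 and 18.6 FPKM in wildtype and 3.24 and 1.74 in the mutant. This was a 7.53-fold fall in mean FPKM (log2 fold change -2.53 ± 0.26 SE, adjusted p = 0.00315), and it also passed the test after rescaling (-1.78).

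scro, a homeobox gene of the NK-2 class known from brain and pharynx, stood at 14.6 and 14.4 FPKM in wildtype and at 1.49 and 1.15 in the mutant. Its 10.99-fold fall (log2 fold change -2.75 ± 0.17 SE, adjusted p = 0.00211) also remained past the threshold after rescaling (-2.06). vtd encodes Rad21, the cleavable ring subunit of cohesin, and was at 18.7 and 19.98 FPKM in wildtype against 6.16 and 3.42 in the mutant (log2 fold change -1.85, adjusted p = 0.00645). Both mutant values of vtd were below both wildtype values, but with rescaled libraries it missed the threshold (-1.04, adjusted p = 0.0241).

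Clamp, a zinc finger protein of GA-rich sites that helps to target dosage compensation to the X, was at 41.0 and 37.5 FPKM in wildtype and 13.3 and 13.9 in the mutant (log2 fold change -1.46, adjusted p = 0.00329). CycK, the cyclin partner of a kinase of RNA polymerase II, had the mildest fall of all called genes, from 26.9 and 29.1 FPKM to 15.2 and 13.8 (log2 fold change -0.90, adjusted p = 0.00908). That is close to the shift of the whole genome, and after rescaling its change was -0.02. Tif-IA, an initiation factor of RNA polymerase I, was the only tested gene of the group that did not pass, with 22.6 and 20.8 FPKM in wildtype and 18.1 and 10.1 in the mutant (-0.64, adjusted p = 0.130), and its sign turned after rescaling (0.23).

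Set1, the main methyltransferase for lysine 4 of histone H3 in flies, could not be tested because its locus, which overlaps that of the Mediator subunit gene MED21, did not have an OK status in every library. Its listed values were 11.3 and 11.7 FPKM in wildtype and 3.94 and 3.65 in the mutant. The genotypes did not overlap, and the mean was 3.03-fold lower in the mutant. MED21 was listed below 0.04 FPKM in all libraries, so reads at this locus may not have been shared out well between both genes.

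Of the 6 genes of RNA processing and silencing, all 4 tested ones were lower (median -1.73; 34.6 percent of all tested genes were), although after rescaling their adjusted p-values ran from 0.0135 to 0.109. su(f), the fly homolog of a cleavage factor that shapes mRNA 3' ends, was at 5.45 and 5.99 FPKM in wildtype and 0.434 and 1.08 in the mutant (log2 fold change -1.96, adjusted p = 0.00473). Its call was lost when transcripts without a gene name were added to the genes sharing their start or end (adjusted p = 0.0220). The splicing factor genes Spf30 and Spf45 fell from 57.2 and 51.6 to 16.0 and 13.1 FPKM (-1.84) and from 37.6 and 36.0 to 11.3 and 11.3 FPKM (-1.62). The DEAD-box helicase gene Dbp80, whose locus spans 134330 bp of 3LHet, was at 45.1 and 42.2 FPKM in wildtype and 13.5 and 16.7 in the mutant (-1.48, adjusted p = 0.00406).

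AGO3, an Argonaute protein that works with Aubergine in the piRNA amplification loop of the germline, lay under the cutoff on low values. It also did not have an OK status in every library. It was listed at 1.83 and 1.36 FPKM in wildtype and at 0.271 and 0.282 in the mutant, with no overlap. Marf1, an RNA-binding protein of the oocyte, was kept out by cutoff and status as well. It was among the 3 untested genes with both mutant libraries higher, at 0.711 and 0.775 FPKM in wildtype and 1.48 and 1.47 in the mutant.

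Of 6 genes of mitochondria 1 was lower (16.7%, against 34.6 percent of all tested genes), 1 was higher and 4 did not pass, with a median of -0.23 as deposited and 0.69 after rescaling. ND-MLRQ encodes a small subunit of the respiratory chain and had the highest FPKM among the 86 genes. It rose from 337 and 307 FPKM in wildtype to 1126 and 865 in the mutant, a 3.09-fold rise (log2 fold change 1.61 ± 0.21 SE, adjusted p = 0.00456). Its neighbour alpha-Cat, whose locus ends 1220 bp away, fell from 50.1 and 45.2 to 17.9 and 22.1 FPKM (-1.22, adjusted p = 0.00652). Adjacent genes of the same block thus moved in opposite directions in the values as deposited. The call on alpha-Cat was lost after rescaling (-0.32, adjusted p = 0.336).

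UQCR-11, a subunit of respiratory complex III, was the second most abundant, at 248 and 245 FPKM in wildtype and 398 and 220 in the mutant (0.26, adjusted p = 0.505). The mutant libraries lay on either side of the wildtype ones, and its sign rested on mutant replicate 1, without which the estimate was -0.16. ND-AGGG, a subunit of complex I, was at 45.3 and 53.0 FPKM in wildtype and 81.2 and 61.8 in the mutant (0.52, adjusted p = 0.0899). With rescaled libraries ND-AGGG passed as higher (1.43, adjusted p = 0.00520).

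The import channel genes Tim23 and Tim17b, by contrast, had estimates of -0.80 and -0.72 and did not pass. Tim23 was at 87.9 and 101 FPKM in wildtype and 69.7 and 41.2 in the mutant. Nubpl, known in humans as an assembly factor that delivers iron-sulfur clusters to complex I, was the single lower gene of the group, at 40.4 and 35.3 FPKM in wildtype and 11.3 and 11.9 in the mutant (-1.62, adjusted p = 0.00308). A transcript without a gene name has the same locus, at 19.6 and 29.8 FPKM in wildtype and 17.6 and 24.7 in the mutant. With it added to Nubpl, an alternative chosen after seeing the data, the estimate was -0.92 and the call was lost (adjusted p = 0.0141).

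Of 8 genes of trafficking, adhesion and signalling 5 were lower (62.5%, against 34.6 percent of all tested genes) and 1 was higher, with a median of -1.25. After rescaling 2 were lower (25%, against 10.2 percent) and the median was -0.37. lt and Vps11 encode subunits of the complexes that tether membranes at the lysosome, and lt is the textbook example of a gene adapted to heterochromatin. lt (2L, positions 22817519 to 22833490) was at 25.8 and 24.6 FPKM in wildtype and 13.3 and 19.8 in the mutant. Both mutant values were below both wildtype values, but the 1.53-fold difference did not pass the test (log2 fold change -0.61 ± 0.24 SE, adjusted p = 0.0799). It was smaller than the shift of the genome as a whole, and after rescaling the estimate was 0.28 (adjusted p = 0.503).

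Vps11, at the end of 3L, fell much further, from 16.7 and 15.2 FPKM to 2.89 and 1.79, a 6.81-fold difference (log2 fold change -2.36 ± 0.23 SE, adjusted p = 0.00288) that also passed after rescaling (-1.61). So the 2 genes of these tethering complexes, both in heterochromatin, differed in how much they changed, though the difference between them was not tested. cta, the G protein alpha subunit of the fog pathway of gastrulation, is the next of the 86 genes after lt and was at 23.8 and 20.4 FPKM in wildtype and 7.90 and 9.06 in the mutant (-1.28, adjusted p = 0.00505). The call on cta was lost after rescaling (-0.42).

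Slmap, a membrane-anchored protein of the STRIPAK phosphatase complex that acts on Hippo signalling, fell from 33.0 and 30.6 to 5.69 and 6.32 FPKM (-2.23, adjusted p = 0.00227). Gpb5, the beta subunit of a glycoprotein hormone, fell from 8.81 and 6.84 to 2.28 and 1.65 FPKM (-1.57, adjusted p = 0.00545), whereas Tim23, whose locus begins at the base after Gpb5 ends, did not pass. CkIIalpha, the catalytic subunit of casein kinase II, was at 97.6 and 93.8 FPKM in wildtype and 59.1 and 39.3 in the mutant (-0.97, adjusted p = 0.0258), without overlap.

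nrm, an immunoglobulin-type adhesion protein known from neurons and muscle precursors, was the exception in this group. It rose from 4.34 and 4.23 FPKM in wildtype to 14.5 and 11.5 in the mutant, a 3.04-fold rise (log2 fold change 1.401 ± 0.18 SE, adjusted p = 0.00470), and 2.21 after rescaling. Its locus (3L, positions 22991541 to 23031258) overlaps transcripts with no gene name, so some reads may have been shared.

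On the log2(FPKM + 1) scale the largest fall among the tested pericentric genes was that of Cht10, a chitinase of the kind that takes apart old cuticle at the molt (2L, positions 22892290 to 22918647). It stood at 110 and 115 FPKM in wildtype and at 5.15 and 1.91 in the mutant. Mean FPKM was 31.9-fold lower in the mutant (log2 fold change -4.75 ± 0.40 SE, adjusted p = 0.00253), with -3.95 after rescaling. FASN3, a fatty acid synthase known from the oenocytes (3LHet, positions 1135558 to 1145369), fell 10.6-fold, from 72.0 and 77.8 to 7.41 and 6.72 FPKM (-3.23 ± 0.16 SE, adjusted p = 0.00206). Gfat1, which makes the amino sugar precursor of chitin and glycoproteins, did not move with them: it was at 83.1 and 81.6 FPKM in wildtype and 107 and 84.1 in the mutant (0.21, adjusted p = 0.383), and it passed as higher after rescaling (1.12, adjusted p = 0.00817).

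The genes nearest to the 2L border form a run of 13 genes distal to CG3651. In 12 of them both mutant libraries lay below both wildtype libraries (92.3%, against 66 percent of all genes with expression). Of the 5 tested ones 4 were lower (against 34.6 percent of all tested genes), with a median of -2.82, and 3 were lower after rescaling (against 10.2 percent). CG15219, the most abundant of them, was at 121 and 166 FPKM in wildtype and 10.2 and 17.0 in the mutant (-3.33 ± 0.32 SE, adjusted p = 0.00284). ttm3, related by sequence to a subunit of the mitochondrial import machinery, fell 33.8-fold in mean FPKM, from 8.22 and 9.81 to 0.262 and 0.272 (-2.98, adjusted p = 0.00218). Each mutant library held 2 fragments of ttm3, so the size of this ratio is uncertain.

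CG10834, 1355 bp from CG15219, was at 9.16 and 19.0 FPKM in wildtype and 0.529 and 1.65 in the mutant (-2.82, adjusted p = 0.00754). CG42597 fell from 9.50 and 10.1 to 0.382 and 0.792 FPKM (-2.78, adjusted p = 0.00242). In the mutant libraries CG10834 had 1 and 3 fragments and CG42597 had 1 and 2. CG34173 had 4.52 and 8.83 FPKM in wildtype and 1.05 and 0 in the mutant (-2.37, adjusted p = 0.0140) and was the tested gene of this run that did not pass.

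The run also holds tplus3a and tplus3b, paralogs of a transcription factor family known from the testis, which were below the cutoff at 2.18 and 2.00 and at 1.71 and 1.72 FPKM in wildtype and at 0.305 to 0.512 in the mutant. The testis genes examined, which all lie on 3R and partly next to each other, had a median of -2.89 (run -2.82). After rescaling it was -1.99 (run -2.20). Whether testis tissue has a part in the fall of the run was not tested. Without these 13 genes, 29 of 52 tested pericentric genes were lower (55.8%, against 34.6 percent of all tested genes), with a median of -1.18. In the same set 4 were higher (7.69%, against 7.02 percent). With rescaled libraries 10 were lower (19.2%, against 10.2 percent) and 7 higher (13.5%, against 12.6 percent), with a median of -0.30. Lower genes were thus not confined to the run, but the fall outside it was smaller on that scale.

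The 4 genes that passed as higher lay in 3 different blocks. Besides nrm and ND-MLRQ they were CG3635 on 2L (positions 22175415 to 22183992) and CG17167 on XHet (positions 47121 to 59583). CG3635 was at 1.88 and 1.02 FPKM in wildtype and 10.7 and 18.8 in the mutant, a 10.2-fold rise (2.66 ± 0.35 SE, adjusted p = 0.00470). CG17167 rose from 3.64 and 3.55 to 16.3 and 14.0 FPKM (1.81 ± 0.16 SE, adjusted p = 0.00271).

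All 4 also passed as higher after rescaling. The largest estimate upward belonged to a gene that did not pass: CG40198 on 3RHet was at 0.797 and 1.81 FPKM in wildtype and at 42.0 and 9.43 in the mutant (3.23 ± 0.75 SE, adjusted p = 0.0193). Both mutant values were far above wildtype but differed widely from each other.

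XHet shows how differently close neighbours behaved. CG17167, which rose, is followed after 105 bp by CG17163, at 10.2 and 10.2 FPKM in wildtype and 3.98 and 6.16 in the mutant (-0.91, adjusted p = 0.0257). CG17168, after a further 58 bp, was at 17.9 and 19.7 FPKM in wildtype and 9.29 and 10.7 in the mutant (-0.85, adjusted p = 0.0123). Neither passed the test, and both sat at the shift of the whole genome. CG17162 (-0.56, adjusted p = 0.0669) did not pass either, while su(f), 656 bp further on, was lower by 1.96 on the log2 scale. The call on su(f) was lost after rescaling (-1.38, adjusted p = 0.0274). A transcript without a gene name overlaps both loci, so some reads may have been shared. CG17159, whose locus overlaps that of CG17162, was below the cutoff, at 2.16 and 2.56 FPKM in wildtype and 0.110 and 0.253 in the mutant.

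Among the genes with no role given, 16 of 30 tested ones were lower (53.3%, against 34.6 percent of all tested genes) and 2 were higher (6.67%, against 7.02 percent), with a median of -1.18. After rescaling 7 were lower (23.3%, against 10.2 percent) and 3 were higher. CG41099 on 3RHet fell from 20.8 and 25.6 to 4.75 and 2.04 FPKM (-2.53, adjusted p = 0.00554). CG17493 at the end of 2L fell from 34.9 and 36.1 to 6.89 and 7.33 FPKM (-2.17), CG40160 on 3LHet from 31.7 and 30.8 to 6.26 and 6.05 FPKM (-2.17) and CG32461 on 3L from 5.42 and 6.17 to 0.334 and 0.693 FPKM (-2.17). The replicates of these genes lay close together compared with the gap between the genotypes.

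The 5 genes with the highest wildtype level include 3 of unstated role, 1 of them CG15219 of the 2L run. CG40045, annotated by similarity as a ubiquitin-conjugating enzyme, fell from 133 and 122 to 61.3 and 49.2 FPKM (-1.20, adjusted p = 0.00712), a change that did not pass after rescaling (-0.28). CG41128 on 3RHet was at 183 and 210 FPKM in wildtype and 174 and 108 in the mutant (-0.51, adjusted p = 0.180). With ND-MLRQ and UQCR-11, of the 5 2 passed as lower, 1 as higher and 2 did not pass.

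The other lower genes of unstated role ranged from -2.08 to -1.07. They were CG42598 (-2.08), CG41284 (-1.90), CG40228 (-1.87), CG40439 (-1.82), CG3651 (-1.30), CG17715 (-1.08) and CG12567 (-1.07). CG42598 and CG41284 had the same FPKM as each other in each mutant library, 0.777 and 0.586, so their reads may be shared and they may not be separate measurements. The others that did not pass lay between -1.16 for Mes2 and 0.55 for CG40472 in their estimates, with Alg-2, a calcium-binding protein, just short of the threshold at -0.96 (adjusted p = 0.0109) and past it with transcripts without a gene name added (-1.01, adjusted p = 0.00872). l(3)80Fg, the longest locus of the set at 215672 bp, was at 9.47 and 10.3 FPKM in wildtype and 7.46 and 10.7 in the mutant (-0.13, adjusted p = 0.632), with overlapping genotypes.

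Genes were also grouped by the length of their locus and by their level in wildtype. Pericentric genes had longer loci than the rest, with a median of 3842 bp against 2075 bp on the same arms. The median log2 fold change was -1.60 for loci under 5 kb (18 of 30 lower), -1.07 for loci of 5 to 20 kb (9 of 18 lower) and -1.85 for loci over 20 kb (6 of 9 lower). Other genes of the arms had -0.81, -0.88 and -1.01 in the same classes, with 34.5%, 34.1% and 41.5% lower. Spearman's rank correlation of the fold change with locus length was 0.11 across the 57 genes and 0.02 across the other genes of the arms, a description over genes that share the same 4 libraries.

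By wildtype level the medians were -1.30 under 10 FPKM (8 of 17 lower), -1.47 from 10 to 50 FPKM (19 of 26 lower) and -0.89 over 50 FPKM (6 of 14 lower). Other genes of the arms had -0.81, -0.92 and -0.56 in these classes, with 30.9%, 40.5% and 27.6% lower, so in every class of length and of level the pericentric median was the lower one in the values as deposited. Of the 18 pericentric genes whose locus overlaps another transcript 8 were tested and 4 were lower. Without them 29 of 49 were lower and 3 higher, with the median again at -1.28.

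The 29 genes that were not tested were 18 below the cutoff, 5 without an OK status and 6 with both. Counted over all 86 genes and without a test, both mutant libraries lay below both wildtype libraries in 69 (80.2%, against 66 percent of all genes with expression) and above them in 11 (12.8%, against 15.4 percent). Among the 29 untested genes the numbers were 22 (75.9%) and 3 (10.3%), against 52.8% and 9.56% of the 4089 untested genes of the genome.

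CG17698, kept out by its status, was listed at 18.0 and 15.9 FPKM in wildtype and at 1.72 and 0.536 in the mutant, and CG42748 at 26.7 and 29.6 and then 11.9 and 9.50. The 4 genes known from neurons, glia or sense organs were all untested. nAChRalpha4, a subunit of the nicotinic acetylcholine receptor, had 1.23 and 1.80 FPKM in wildtype and 0.103 and 0.215 in the mutant, and the ion exchanger gene zyd had 3.13 and 4.14 and then 2.21 and 2.22. The chemoreceptor genes Ir40a and Grl40a were below 1.4 FPKM in every library. CG32457 was listed at 0 in both wildtype libraries and at 0.295 and 0.306 FPKM in the mutant. ARY, at 2.14 and 2.67 FPKM in wildtype and 0.233 and 0.121 in the mutant, is placed on the Y chromosome in a later assembly and may not belong to 3LHet.

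**Figure D4:**
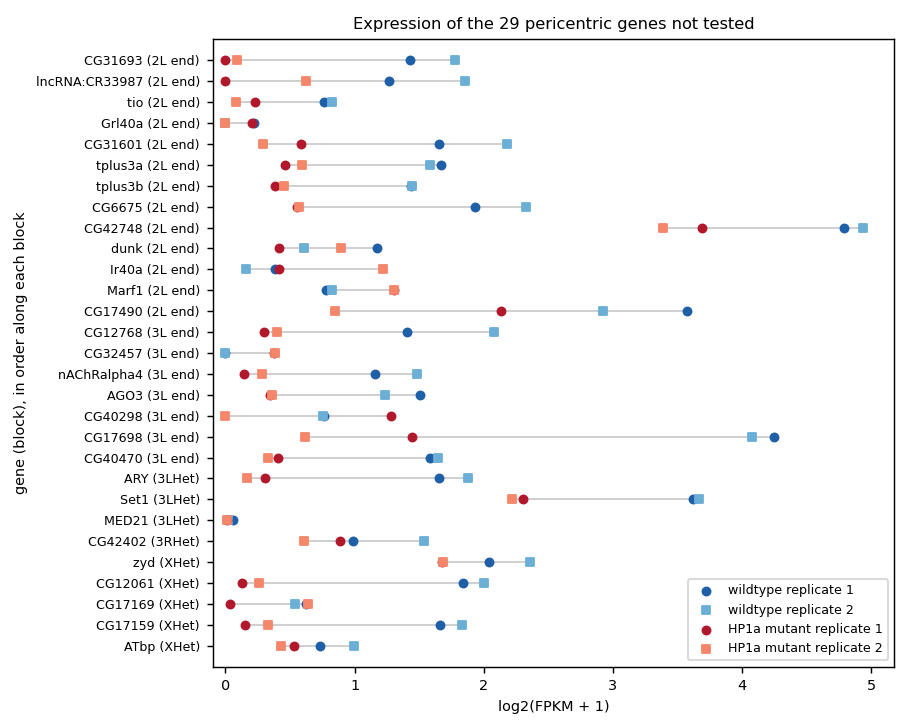
Level of the 29 pericentric genes that were not tested, on the log2(FPKM + 1) scale (horizontal axis), with 1 point per library (wildtype blue, HP1a mutant red). In 22 genes both red points lie to the left of both blue points, and in 3 they lie to the right; most values are below 2 on this scale.

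Genes for proteins that build heterochromatin were examined beside the genes that reside in it. Of 26 such genes listed, 25 were in the files and 22 were tested: 17 were lower in the values as deposited (77.3%, against 34.6 percent of all tested genes) and all 22 estimates were negative, with a median of -1.48. After rescaling 2 of them were lower, Su(var)205 and HP6, and the median was -0.71. That is 9.09%, no more than the 10.2 percent of all tested genes that were lower on that scale. The list includes the genes of the H3K9 methyltransferases Su(var)3-9 (lower), egg and G9a (neither passed).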

How the data were processed

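The authors sequenced rRNA-depleted RNA of wildtype and HP1a mutant larvae and deposited FPKM values for 22608 RefSeq transcripts per library. TopHat and Cufflinks are named in the submitters' processing notes, with versions and use of strand not given in the sources used here. FPKM were summed per gene with RefSeq names, leaving out 1221 transcripts without a gene and 105 listed at more than 1 locus. Positions are Release 5, written from 1.

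The mutant was set against wildtype on log2(FPKM + 1) with limma 3.58.1 (R 4.3.3), a moderated two-sided test with a variance trend, over 9404 genes with a mean above 1.4 and an OK status in all 4 libraries. P-values were adjusted by Benjamini-Hochberg over all these genes (FDR 0.01) and measure the spread between 2 libraries per genotype. An exact permutation test cannot give a p under 0.333. Count-based tools were not used, as the values are FPKM. The fit was tested on simulated data. Tables and plots used Python 3.11.15, numpy 2.4.6, pandas 2.3.3, scipy 1.17.1 and matplotlib 3.10.9.

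Genes and lists were chosen with earlier results of these data known. Named genes were the 10 largest falls past the FDR without overlap of the genotypes and all such rises, the 5 highest in wildtype, a list of known heterochromatic genes, and Su(var)205 with the heterochromatin protein and tissue marker lists. The other genes were named for their role or neighbourhood after their values were seen. Of the known genes listed, Myo81F, Haspin, dpr21, Cht3, FASN2, PNUTS and d4 are not among the 86 and are not described. The marker list of dosage compensation RNAs (roX1 and roX2) summed to 539 and 634 FPKM in wildtype and 224 and 220 in the mutant, and that of 4 larval serum proteins to 16256 and 14492 and then 26319 and 35285. In the latter list 3 genes passed as higher. The other, Lsp2, went down from 9321 and 7758 FPKM in wildtype to 2727 and 4433 in the mutant and did not pass. Promoter motifs were not analysed here. Alternatives were other pseudocounts (0.1 and 5), filters, scalings, gene definitions, a replicate block and leaving out each library.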

Additional observations from a re-analysis of the deposited data

Results flagged for a closer look

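The pericentric stretches hold 31 entries of transcripts that carry no gene name, some of them the same transcript at more than 1 locus. They were left out of the main comparison. In 19 entries both mutant libraries lay below both wildtype libraries, against 66 percent of all genes with expression. In 2 entries both lay above, against 15.4 percent. Both of the latter lie on 3RHet and are reported because both mutant values were listed above both wildtype values. Their levels are near the floor and may rest on very few fragments. For scale, CG34173, a locus of 363 bp, had 1 fragment at 1.05 FPKM in mutant replicate 1. The first (positions 1016923 to 1017221) was listed at 0 in both wildtype libraries and at a mean of 1.161 FPKM in the HP1a mutant (1.14 and 1.18). The other (positions 1130828 to 1310687) was listed at 0 and 0.349 FPKM in wildtype and had a mean of 0.4475 FPKM in the mutant (0.495 and 0.400).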

How the results depend on the processing

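Results moved under other scalings and without a wildtype library. With libraries rescaled to the same median, 13 pericentric genes were lower and 7 higher, the median of the pericentric genes was -0.4446 and that of other genes of the same arms -0.02221. With quantile normalization 13 were lower and the medians were -0.7318 and -0.06323. The median of the pericentric genes was -1.459 with a pseudocount of 0.1, -0.8993 with 5 (other genes of the arms -0.5674), -1.198 without a filter on low values (other genes -0.6951), -1.083 with a mean FPKM above 5, -0.9616 over single transcripts and -1.207 with the genes left out by symbol counted. In alternatives chosen after seeing the data it was -1.216 with transcripts without a gene added to genes that share their start or end, and -1.178 without the 2L genes distal to CG3651. On the Het scaffolds alone 13 of 27 tested genes were lower (48.1%) and 1 higher (3.70%), with a median of -0.9616. At the ends of 2L and 3L 20 of 30 were lower (66.7%) and 3 higher (10%), with a median of -1.379. Of all tested genes 34.6 percent were lower and 7.02 percent higher. With rescaled libraries the Het scaffolds had 6 lower (22.2%) and 4 higher (14.8%), with a median of -0.10. The ends of 2L and 3L then had 7 lower (23.3%) and 3 higher (10%), with a median of -0.55. The shares of all tested genes were then 10.2 and 12.6 percent.

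Leaving out 1 library at a time gave 0 to 37 lower and 0 to 6 higher genes and a median from -1.361 to -1.177 (other genes of the arms -0.9466 to -0.7323). The counts of 0 came without wildtype replicate 1 or 2, where the lone wildtype library is assumed to vary like the mutant ones. Unadjusted limma p-values under 0.05 then numbered 39 and 38. Without mutant replicate 2 the lower genes numbered 28.

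Sign changes were limited to genes that did not pass the test. After rescaling these were Tif-IA (0.2315), CG40006 (0.005365), lt (0.2758), Tim23 (0.1118), l(3)80Fg (0.7155), CG41128 (0.4115), Tim17b (0.1858), CG17168 (0.01477) and CG17162 (0.2819). After quantile normalization they were Tif-IA (0.03371), CG40006 (0.1994), lt (0.001796), CG33217 (0.09259), l(3)80Fg (0.7349), CG17163 (0.05312) and CG17162 (0.2842). Without mutant replicate 1 they were UQCR-11 (-0.1644) and l(3)80Fg (0.111), which came to 0.6903 and -0.3619 without mutant replicate 2. The cause was not tested.

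Replicate numbers of the genotypes did not pair the libraries, with a correlation of 0.03 across 9404 genes between the differences of replicates 1 and 2. With a replicate block 26 pericentric genes were lower and 4 higher, and the call was lost for 7 of 58 single genes. Depth limits the weakly expressed genes: CG34173, for example, had no fragment in 1 mutant library, and CG32461 had 2 and 4 fragments in the mutant libraries.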
